A study of Arabidopsis thaliana with 12 samples.

Results

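Copper uptake and copper-deficiency regulation was followed at 10 listed Arabidopsis thaliana loci, namely SPL7 (AT5G18830), COPT1 (AT5G59030), COPT2 (AT3G46900), FRO4 (AT5G23980), FRO5 (AT5G23990), ZIP2 (AT5G59520), CCH (AT3G56240), MIR408 (AT2G47015), MIR398B (AT5G14545) and MIR398C (AT5G14565). A probe named for the locus was found for 9 of the 10, among 29030 loci with a probe, and MIR398B had none in the probe annotation. All 9 were among the 23550 genes past the filter on dim probes. The loci were picked for their function in copper handling with earlier results of the same arrays known, every treatment contrast included. Chosen by role and selected on the measured differences between treatments, their values below are a description and carry no p-value.

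All seedlings were wild type of the accession Col-0. Seeds lay on agar medium with the treatment for 3 days in the dark and cold, and whole seedlings were taken after 4 days of continuous blue light at 10 µmol per square metre and second. The 4 treatments were dimethyl sulfoxide (DMSO), 3-bromoindazole (3BRO), 7-nitroindazole (7NIT) and 3-bromo-7-nitroindazole (3B7N), with the chemicals at 2.5 µM and 3 arrays each. The 3 chemicals share the indazole ring and differ in carrying the bromine, the nitro group or both. Whether a treatment's 3 arrays stand for separate cultures is not given in the labels, so spreads and p-values refer to these samples and may be technical.

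Copper enters plant roots after plasma-membrane reductases of the FRO family turn Cu(II) into Cu(I), which the high-affinity transporters of the COPT family then carry inward. When copper is scarce, the transcription factor SPL7 binds GTAC motifs and raises the transcripts of these reductases and transporters, of the chaperone CCH and of several microRNA loci. Those microRNAs lower the messages of dispensable copper proteins, so that copper goes to plastocyanin in the chloroplast. FSD1, an iron superoxide dismutase, takes over from the copper/zinc enzymes CSD1 and CSD2 under copper scarcity, and CSD1, CSD2 and their chaperone CCS are targets of miR398.

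A level is given here as log2 of the processed signal minus the log2 of that array's 75th percentile, so 0 is a probe as bright as that percentile, and a difference of 1 is a 2-fold change. Levels of different probes are not set against each other. The 75th percentile signal lay between 1768 and 2205 with DMSO, 2366 and 2920 with 3BRO, 2770 and 3472 with 7NIT, and 3318 and 3761 with 3B7N. The share of probes marked well above background was 77.2% to 84.7% per array, and no spot was saturated. The arrays lay on 3 slides. Slide 1 held the 3 DMSO arrays and 3BRO replicate 1, slide 2 held 3BRO replicates 2 and 3 with 3B7N replicates 1 and 2, and slide 3 held the 3 7NIT arrays with 3B7N replicate 3. Slide 1 was scanned on 1 day and the other slides on another. No slide held DMSO beside 3B7N or 7NIT, so a fit with slide as a block reaches those differences only through the other groups.

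In seedlings grown with 3B7N, the scaled levels of FRO4, FRO5, ZIP2, CCH, COPT2 and MIR408 were lower than with DMSO on every array, with mean log2 differences of -4.91 to -1.21. With 7NIT these 6 loci lay below all DMSO arrays too, where 8.05% of all genes did, and COPT2 stood between DMSO and 3B7N. With 3BRO 2 of the 9 loci, COPT2 and FRO5, lay below all DMSO arrays, where 5.84% of all genes did. SPL7, COPT1 and MIR398C differed from DMSO by -0.51 to -0.01 with the 3 chemicals. In 3B7N minus DMSO, limma called 6 of the 9 loci, all lower, and 10.2% of all genes were called lower. The groups did not overlap at 7 of the 9, again all lower, against 19.6% of all genes. FRO5 passed the filter only through the DMSO arrays and MIR408 only through the 3BRO arrays. Every contrast with DMSO was known when the loci were picked. For both reasons nothing is read from any share in this paragraph.

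**Figure D1:**
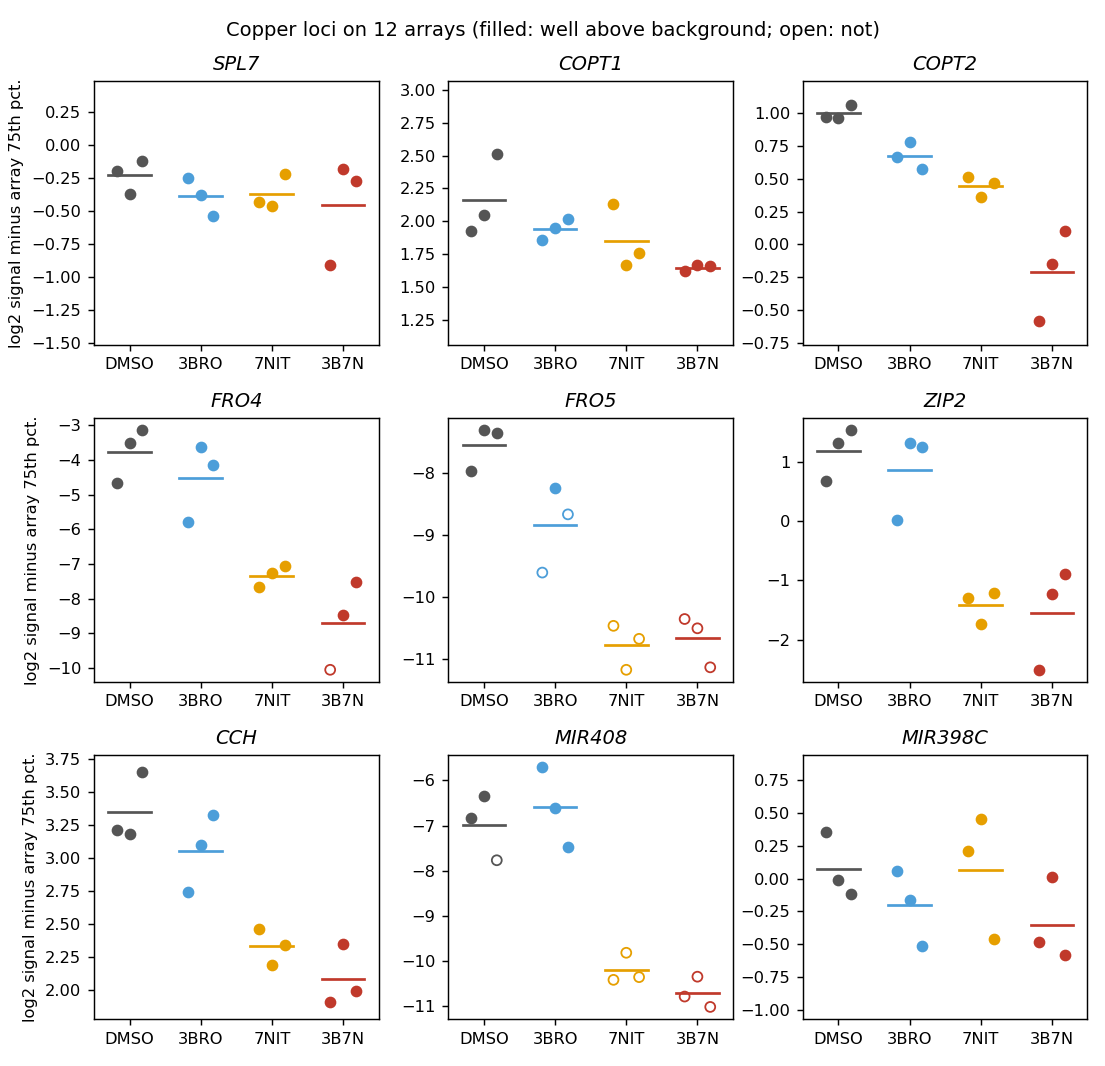
Log2 level of 9 copper loci (log2 signal minus the array's 75th percentile, own scale per panel) on each of 12 arrays by treatment, with bars at the mean of 3 arrays; filled points are well above background and open points are not. The 3B7N points of COPT2 lie between -0.58 and 0.10, under all other arrays, and the MIR408 points with 7NIT and 3B7N are all open.

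FRO4 encodes a plasma-membrane reductase of copper ions. Its levels with DMSO were -4.67, -3.51 and -3.14, and with 3BRO they were -5.78, -3.63 and -4.15. With 7NIT the levels were -7.66, -7.27 and -7.07, and with 3B7N they were -10.05, -8.48 and -7.53, the first of these not well above background. Neither the 7NIT nor the 3B7N arrays overlapped with DMSO or 3BRO, whereas DMSO overlapped with 3BRO and 7NIT overlapped with 3B7N. FRO4 differed by -4.91 in 3B7N minus DMSO (SE 0.68, 95% interval -6.40 to -3.42, 3 arrays each) and by -3.56 in 7NIT minus DMSO (interval -5.05 to -2.07). With 3BRO the difference was -0.75 with an interval of -2.24 to 0.74. It was -1.20 without DMSO replicate 1, -1.19 without 3BRO replicate 2, -0.43 without DMSO replicate 3 and -0.12 without 3BRO replicate 1. With slide as a block it was -2.01, with an interval of -3.54 to -0.48. With replicate number as a block it stayed at -0.75, with an interval of -1.56 to 0.06.

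FRO5 lies next to FRO4 on chromosome 5 with no gene between them and encodes a closely related reductase. Because the copies are similar, a probe of either can bind transcripts of both, and their separate values are uncertain. FRO5 was dim throughout, with processed signals of 7.91 to 14.0 on the 3 DMSO arrays, where the lowest signals marked well above background were 6.53 to 9.38. It passed the filter through the DMSO arrays alone. Its levels were -7.96, -7.30 and -7.35 with DMSO, and -9.60, -8.24 and -8.66 with 3BRO, of which 1 of 3 was well above background. With 7NIT they were -10.46, -11.17 and -10.67, and with 3B7N -10.35, -10.50 and -11.13, none of them well above background. The DMSO arrays were the only ones all well above background, and the values not well above background have no order.

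Where no array of a group was well above background, a fold can only be bounded roughly and is given as at least N-fold. The bound sets the mean of the brighter group, as measured, against the dim group's values. Each dim value was raised to the lowest signal of any spot well above background on its array. A probe brighter than that signal can still be unmarked, so the bound is not strict, and it holds for the processed signal alone. FRO5 was at least 2.49-fold lower with 3B7N than with DMSO and at least 1.97-fold lower with 7NIT. The measured FRO5 differences were -3.12 (SE 0.35) and -3.23 (SE 0.35). With 3BRO the FRO5 difference was -1.30 with an interval of -2.07 to -0.52. Normexp background correction models background and signal together, and here an offset of 50 was added to every signal. Such an offset shrinks log2 differences between dim signals. No other offset was run, so its part in the normexp values of FRO5 and MIR408 was not tested. In 7NIT minus DMSO neither locus kept its sign with normexp, and whether their levels differed is not decided here. With this correction FRO5 in 3B7N minus DMSO was -0.90 with an interval of -2.32 to 0.52. FRO4 was -2.26 with an interval of -3.63 to -0.90. In 7NIT minus DMSO the normexp values were 0.21 for FRO5 and -1.11 for FRO4, with intervals of -1.21 to 1.63 and -2.47 to 0.26.

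COPT2, a high-affinity Cu(I) transporter of the plasma membrane, was the locus at which the scaled levels of the 4 treatments were fully separated. Its levels were 0.97, 0.96 and 1.06 with DMSO, then 0.66, 0.78 and 0.57 with 3BRO, 0.51, 0.36 and 0.47 with 7NIT, and -0.58, -0.15 and 0.10 with 3B7N. No neighbours in that order overlapped. Before scaling, the processed signals did overlap, so the separation rests on the scaling by array. They were 3691 to 4286 with DMSO, 3674 to 5000 with 3BRO, 3938 to 4459 with 7NIT and 2220 to 3999 with 3B7N. The difference from DMSO was -0.33 with 3BRO (interval -0.69 to 0.03), -0.55 with 7NIT (interval -0.91 to -0.20) and -1.21 with 3B7N (interval -1.56 to -0.85). The last is a 2.31-fold lower scaled signal. A second, dimmer COPT2 probe also had its highest levels with DMSO, at -4.04, -3.89 and -3.62. On that probe the 3BRO levels were -4.33 to -4.18, the 7NIT levels -4.83 to -4.22 and the 3B7N levels -4.87 to -4.57, so the 3 chemicals were not separated in order. The dimmer probe differed by -0.89 in 3B7N minus DMSO and by -0.16 in 3B7N minus 7NIT, with an interval of -0.56 to 0.24.

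COPT1, the root transporter through which much of the copper is taken up, differed least among the transporters listed. Its levels were 1.93, 2.05 and 2.51 with DMSO, 1.86, 1.95 and 2.02 with 3BRO, 2.13, 1.67 and 1.76 with 7NIT, and 1.62, 1.67 and 1.66 with 3B7N. The order of the means was that of COPT2, but each pair of neighbours overlapped or met at 2 decimals. COPT1 differed by -0.51 in 3B7N minus DMSO, with an interval of -0.89 to -0.14, and was not called.

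ZIP2, a metal transporter of the ZIP family, split the treatments into DMSO with 3BRO and 7NIT with 3B7N. Levels were 0.68, 1.31 and 1.53 with DMSO and 0.01, 1.31 and 1.24 with 3BRO. They were -1.30, -1.74 and -1.21 with 7NIT and -2.51, -1.23 and -0.90 with 3B7N. No array of the second pair reached any of the first pair, and within each pair the arrays overlapped. ZIP2 signal was 6.59-fold lower with 3B7N than with DMSO, a log2 difference of -2.72 (SE 0.45, interval -3.70 to -1.74). With 7NIT the fold was 6.02 and the difference -2.59 (interval -3.57 to -1.61). After normexp correction the same 2 differences were -2.61 and -2.40.

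CCH, a copper chaperone of the ATX1 family, showed the same split at a high signal. Its levels were 3.21, 3.18 and 3.65 with DMSO, 2.74, 3.10 and 3.33 with 3BRO, 2.46, 2.19 and 2.34 with 7NIT, and 1.91, 2.35 and 1.99 with 3B7N. DMSO overlapped with 3BRO and 7NIT with 3B7N, and the pairs lay apart in these scaled levels. Before scaling, the pairs overlapped. Processed signals were 18190 to 22120 with DMSO, 15810 to 25000 with 3BRO, 15210 to 16020 with 7NIT and 12460 to 19120 with 3B7N. The difference from DMSO was -1.26 with 3B7N (SE 0.19, interval -1.69 to -0.83), -1.01 with 7NIT (interval -1.44 to -0.59) and -0.29 with 3BRO (interval -0.71 to 0.14).

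A probe of a microRNA locus reads transcript from the locus and not the mature microRNA. MIR408, whose microRNA targets plantacyanin and laccase messages, passed the filter through the 3BRO arrays alone. Its levels were -6.83, -6.34 and -7.77 with DMSO, of which 2 of 3 were well above background, and -5.71, -6.62 and -7.47 with 3BRO. The 7NIT levels were -10.42, -9.82 and -10.36 and the 3B7N levels -10.79, -10.35 and -11.02, none well above background. MIR408 signal was thus at least 3.65-fold lower with 3B7N than with DMSO and at least 2.90-fold lower with 7NIT. DMSO replicate 3, not well above background, enters both bounds as measured. The measured differences were -3.74 and -3.22 (SE 0.45 each). After normexp correction they were -1.11, with an interval of -2.52 to 0.30, and 0.13, with an interval of -1.28 to 1.54.

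MIR398C, the other microRNA locus with a probe, overlapped across treatments. It lies on chromosome 5 with 1 gene between it and MIR398B. Its levels ran from -0.12 to 0.35 with DMSO, -0.51 to 0.06 with 3BRO, -0.46 to 0.45 with 7NIT and -0.58 to 0.01 with 3B7N, and every pair of treatments overlapped. The MIR398C difference from DMSO was -0.42 with 3B7N (interval -0.99 to 0.15), -0.01 with 7NIT (interval -0.58 to 0.56) and -0.28 with 3BRO (interval -0.85 to 0.29).

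SPL7, the regulator itself, also overlapped between all treatments. Levels were -0.20, -0.37 and -0.12 with DMSO, -0.25, -0.38 and -0.54 with 3BRO, -0.43, -0.46 and -0.22 with 7NIT, and -0.91, -0.18 and -0.27 with 3B7N. The 3B7N spread came from replicate 1, at -0.91. In 3B7N minus DMSO the SPL7 difference was -0.22 with an interval of -0.64 to 0.19, and with 7NIT and 3BRO it was -0.14 and -0.16.

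The chemicals were compared pairwise at their common dose, in 3 comparisons that differ by a named substituent. 3B7N and 3BRO differ by the nitro group. In 3B7N minus 3BRO, FRO4 differed by -4.16 (interval -5.65 to -2.67), ZIP2 by -2.40 (interval -3.38 to -1.42), CCH by -0.97 (interval -1.40 to -0.55) and COPT2 by -0.88 (interval -1.23 to -0.52). MIR408 was at least 4.76-fold lower with 3B7N than with 3BRO. FRO5 differed by -1.82 (interval -2.60 to -1.05), with 1 of 3 3BRO arrays well above background, so no fold is given for it. These 6 loci were called lower, where 4.79% of all genes were. MIR408 passed the filter only through 3BRO and FRO5 only through DMSO, and this contrast was known when the loci were picked. Nothing is therefore read from that share. After normexp correction 3 loci were called, and FRO4 differed by -1.66 (interval -3.02 to -0.29), MIR408 by -1.01 (interval -2.42 to 0.39) and FRO5 by -0.47 (interval -1.89 to 0.95).

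3B7N and 7NIT differ by the bromine. Between them COPT2 differed by -0.65 (interval -1.01 to -0.30) on the brighter probe and was the 1 locus of 9 called lower, where 12.5% of all genes were, and 0 were called without 7NIT replicate 1 or 3. FRO4 differed by -1.35 with an interval of -2.84 to 0.14, and by -0.67 without 3B7N replicate 1. ZIP2 differed by -0.13 (interval -1.11 to 0.85) and CCH by -0.25 (interval -0.67 to 0.18). FRO5 and MIR408 had no array well above background with either chemical, so no fold is given.

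7NIT and 3BRO carry different substituents. In 7NIT minus 3BRO, FRO4 differed by -2.81 (interval -4.30 to -1.32), ZIP2 by -2.27 (interval -3.25 to -1.29), CCH by -0.73 (interval -1.16 to -0.30) and COPT2 by -0.22 (interval -0.58 to 0.13). After normexp correction FRO4 differed by -0.51 (interval -1.87 to 0.86) and MIR408 by 0.23 (interval -1.18 to 1.63). MIR408 was at least 3.78-fold lower with 7NIT and was the 1 locus called, where 0.0127% of all genes were called lower. In 7NIT minus DMSO the 1 locus called was FRO5, where 0.00849% of all genes were called lower. Each of these loci passed the filter only through the group in which it was high, so nothing is read from its call against the share of all genes. Neither call held without any 1 of the 7NIT arrays or without DMSO replicate 1, when 0 of the 9 loci were called. In 3BRO minus DMSO limma called none of the 9 loci and 0.00425% of all genes, and 1 of the 9, FRO5, had an unadjusted 95% interval that left out 0, as had 3.77% of all genes. FRO5 was not well above background on 2 of the 3 3BRO arrays. Over all 23550 genes the median difference was between -0.03 and 0.04 in the 6 comparisons. Over the 9 loci it was -1.26 in 3B7N minus DMSO, -1.01 in 7NIT minus DMSO and -0.29 in 3BRO minus DMSO. These comparisons share the DMSO arrays.

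**Figure D2:**
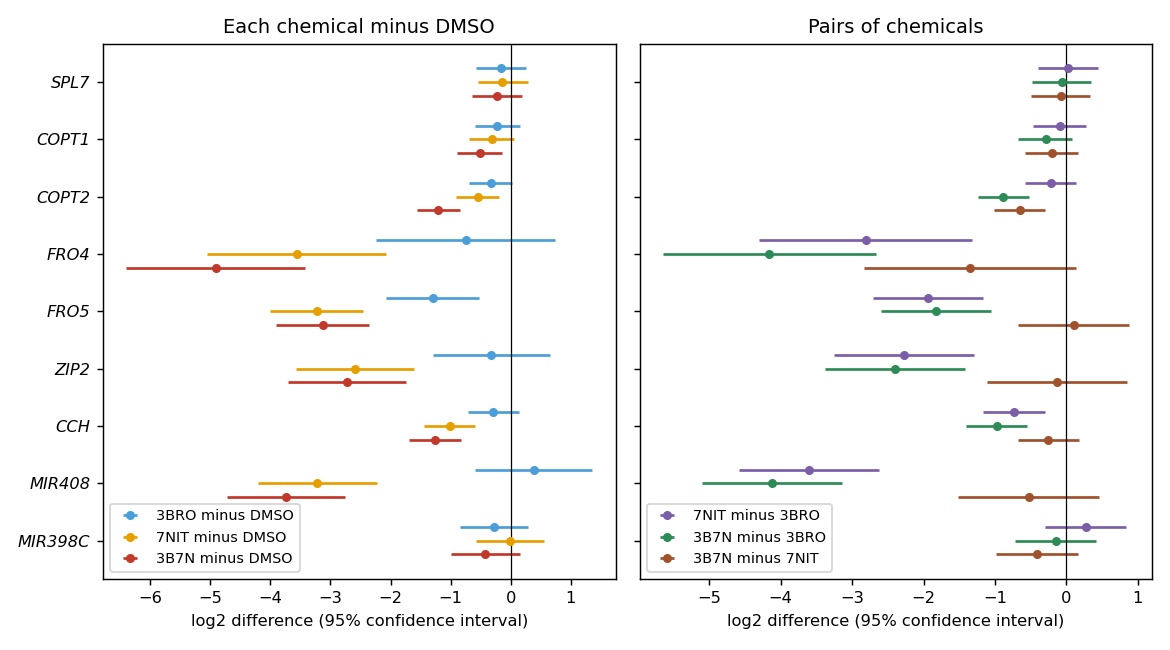
Log2 difference with its 95% interval (limma, 3 arrays per treatment) at 9 copper loci, for each chemical minus DMSO (left) and for pairs of chemicals (right); the vertical line is 0. At ZIP2 the 3BRO difference is -0.32 and the 7NIT and 3B7N differences are -2.59 and -2.72, and the 3B7N minus 7NIT interval spans 0.

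With slide as a block, 3B7N minus DMSO came to -7.38 for FRO4, -4.03 for FRO5, -4.30 for ZIP2, -1.69 for CCH, -1.37 for COPT2 and -2.26 for MIR408. With scan day as a block these were -6.80, -4.27, -3.98, -1.74, -1.22 and -2.41. In 7NIT minus DMSO the slide block gave -7.18 for FRO4, -4.81 for ZIP2, -3.66 for FRO5, -1.36 for CCH and -1.03 for COPT2, and -1.43 for MIR408 with an interval of -3.44 to 0.58. Within slide 2, the 2 3B7N arrays against the 2 3BRO arrays differed by -5.37 at FRO4, -3.14 at ZIP2, -1.97 at FRO5, -1.09 at CCH, -1.04 at COPT2 and -3.53 at MIR408. Within slide 3, the 1 3B7N array minus the 3 7NIT arrays gave -0.34 for COPT2, 0.51 for ZIP2 and -0.20 for FRO4. Within slide 1, the 1 3BRO array minus the 3 DMSO arrays gave -2.01 for FRO4, -2.06 for FRO5, -1.16 for ZIP2, -0.60 for CCH and 1.27 for MIR408. That array, 3BRO replicate 1, was the lowest 3BRO array for FRO4, FRO5, ZIP2 and CCH and the highest for MIR408. The part of slide in the differences from DMSO was not tested apart from these fits.

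**Figure D3:**
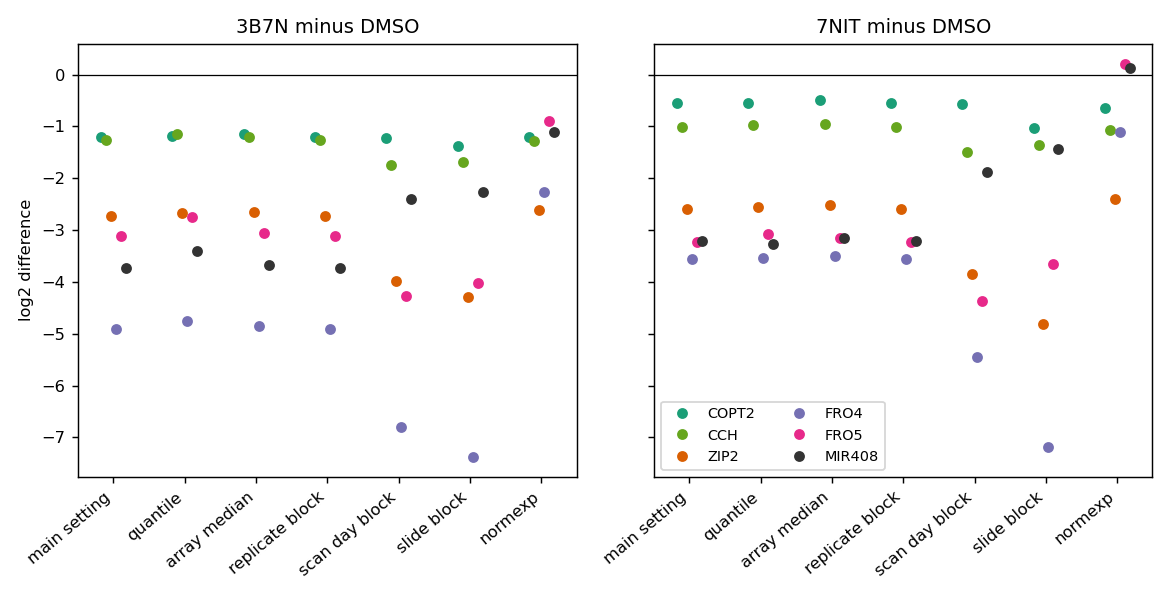
Log2 difference of 6 copper loci in 3B7N minus DMSO (left) and 7NIT minus DMSO (right) under 7 settings of the processing or the model. COPT2, CCH and ZIP2 keep their sign in each, and in 7NIT minus DMSO FRO5 and MIR408 come to 0.21 and 0.13 after normexp correction.

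Over the 12 arrays the levels of most listed loci varied together. Pearson's r was 0.97 for FRO4 with ZIP2, 0.94 for ZIP2 with CCH, 0.93 for FRO4 with CCH, 0.93 for FRO5 with CCH and 0.91 for FRO4 with COPT2. MIR408 had r between 0.75 and 0.83 with COPT2, FRO4, FRO5, ZIP2 and CCH. COPT1 had r 0.83 with CCH, 0.75 with COPT2, 0.74 with FRO5, 0.73 with FRO4, 0.71 with ZIP2 and 0.48 with MIR408. SPL7 reached 0.57 at most, with COPT2, and MIR398C 0.37 at most, also with COPT2. No 7NIT or 3B7N array was well above background at MIR408 or FRO5, so r with these loci rests partly on values that have no order. The points share arrays, treatments and the scaling by array, so the values only describe these 12 arrays.

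The genes whose levels over the 12 arrays were most like COPT2 were IPT5 (r 0.968), COPT6 (0.965), TBL28 (0.960), AT1G08790 (0.956) and bZIP58 (0.952), out of 23356 genes compared. For FRO4 they were NRPE5 (0.960), YSL2 (0.951), SNG1 (0.949), AT3G51440 (0.945) and AT3G12955 (0.944). After subtracting each treatment's mean, r with COPT2 was 0.92 for COPT6 and 0.54 for bZIP58, and r with FRO4 was 0.90 for NRPE5 and 0.57 for YSL2. COPT6 and YSL2 belong to the list of other copper genes described next.

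That list held 66 further loci for copper transport, chaperones, regulation, copper enzymes, metallothioneins and FRO and ZIP relatives, of which 57 passed the filter. In 3B7N minus DMSO, 16 of the 57 fell and 3 rose by limma with Benjamini-Hochberg adjustment, where 10.2% of all genes fell and 5.49% rose. The list's median difference was -0.29, against -0.02 over all genes. This list and the tissue markers below were chosen with earlier results of these data known. Nothing is read from their shares, and the adjusted p-values of their genes are descriptive. Of 12 transporters 6 fell, of 10 ZIP relatives 4 fell, of 6 FRO relatives 2 fell, of 15 copper enzymes and microRNA targets 3 fell and 2 rose, of 8 chaperone and assembly genes 1 rose, the 1 measured regulator locus fell, and none of 5 metallothioneins passed, of which MT1C had the lowest adjusted p, 0.062.

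FSD1, the iron superoxide dismutase named above, had levels of 4.48, 4.28 and 4.69 with DMSO and 4.54, 4.12 and 4.08 with 3BRO. With 7NIT they were 2.17, 2.25 and 2.27, and with 3B7N 0.34, 0.56 and -0.14. DMSO and 3BRO overlapped, and 7NIT and 3B7N each stood apart from all other treatments. FSD1 fell with 3B7N, by a difference of -4.23 (limma adjusted p = 7.6e-06), and with 7NIT, by -2.26 (adjusted p = 0.005). 3B7N was lower than 7NIT by a difference of -1.98 (adjusted p = 0.00029), 7NIT differed from 3BRO by -2.02 (adjusted p = 0.0076), and 3BRO from DMSO by -0.24 (interval -0.67 to 0.19). With slide as a block FSD1 came to -3.60 in 3B7N minus DMSO (adjusted p = 0.0034) and to -1.23 in 7NIT minus DMSO (adjusted p = 0.15).

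YSL2, a carrier of metal chelates, had levels of 0.96 to 1.29 with DMSO, 0.34 to 0.92 with 3BRO, -1.02 to -0.74 with 7NIT and -2.23 to -0.92 with 3B7N. YSL2 fell with 3B7N, by a difference of -2.53 (adjusted p = 0.00065), and with 7NIT its difference was -1.97 (adjusted p = 0.082). The locus AT1G71200, which carries no symbol in the gene table used, had levels of -6.55 to -5.37 with DMSO, -7.06 to -6.13 with 3BRO, -9.07 to -8.72 with 7NIT and -10.22 to -7.85 with 3B7N. AT1G71200 fell with 3B7N, by a difference of -3.12 (adjusted p = 0.0031), with 1 of 3 arrays well above background. Its normexp difference was -1.24 (adjusted p = 0.27).

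The reductases FRO6 and FRO7, relatives of FRO4 that reduce iron in shoots and in chloroplasts, had another order of treatments. FRO6 levels were 3.02 to 3.37 with DMSO, 2.62 to 2.85 with 3BRO, 2.61 to 3.56 with 7NIT and -0.26 to 1.22 with 3B7N. FRO6 fell by 2.49 with 3B7N against DMSO (adjusted p = 0.0015) and was lower than with 7NIT by a difference of -2.45 (adjusted p = 0.0016). FRO7 fell by 2.64 against DMSO (adjusted p = 0.0022), and its difference from 7NIT was -2.58 (adjusted p = 0.0022). The 7NIT arrays thus overlapped with DMSO at FRO6, unlike at FRO4, where no 7NIT array reached DMSO.

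Among copper transporters, COPT6, a plasma-membrane relative of COPT2, fell by 0.82 with 3B7N (adjusted p = 0.0031), while COPT4 and COPT5 differed by 0.05 and 0.06. PAA1, which pumps copper into chloroplasts, fell by 1.25 (adjusted p = 0.0011), and the mean of its probes gave -0.72 (adjusted p = 0.02). The thylakoid pump PAA2 fell by 0.76 (adjusted p = 0.02), and HMA1 of the chloroplast envelope by 0.53 (adjusted p = 0.016). With slide as a block PAA2 and HMA1 came to -0.16 and -0.32 (adjusted p = 0.78 and 0.44). RAN1, which supplies copper to ethylene receptors, differed by -0.15, and the copper exporter HMA5 by 0.44 (adjusted p = 0.067). HMA5 rose against the other chemicals, by 0.59 in 3B7N minus 3BRO (adjusted p = 0.035) and by 0.58 in 3B7N minus 7NIT (adjusted p = 0.021). The zinc and metal transporters ZIP9 and ZIP11 fell with 3B7N, by differences of -1.75 and -1.28 (adjusted p = 0.0074 and 0.01). After normexp correction ZIP9 came to -1.28 (adjusted p = 0.14).

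Of the chaperones, ATX1, the near relative of CCH, differed by -0.06 in 3B7N minus DMSO and by 0.03 with 7NIT. COX17, HCC1 and HCC2, which serve cytochrome oxidase assembly, differed by -0.03, 0.01 and -0.26 in 3B7N minus DMSO. AT1G53030, AT1G02410 and CUTA differed by 0.02, -0.09 and -0.29. CCS, the chaperone of copper/zinc superoxide dismutase, rose by 1.05 with 7NIT (adjusted p = 0.016) and by 0.40 with 3B7N (adjusted p = 0.037). CCS levels were 3.16 to 3.34 with DMSO, 3.21 to 3.31 with 3BRO, 4.28 to 4.38 with 7NIT and 3.51 to 3.78 with 3B7N, and the 3B7N minus 7NIT difference was -0.65 (adjusted p = 0.0039). With slide as a block the CCS difference was 1.37 with 7NIT (adjusted p = 0.066) and 0.56 with 3B7N (adjusted p = 0.18).

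CSD1 and CSD2, the other miR398 targets, were singled out after their values were seen. CSD1 levels were 4.15 to 4.76 with DMSO, 4.61 to 4.78 with 3BRO, 4.98 to 5.28 with 7NIT and 5.19 to 5.34 with 3B7N. CSD1 rose by 0.79 with 3B7N (adjusted p = 0.0083, and 0.27 with slide as a block) and differed by 0.60 with 7NIT (adjusted p = 0.42). CSD2 levels were 4.31 to 4.56 with DMSO, 4.20 to 4.39 with 3BRO, 5.21 to 5.45 with 7NIT and 4.20 to 4.53 with 3B7N. CSD2 was lower with 3B7N than with 7NIT, by a difference of -0.91 (adjusted p = 0.0018), and its difference from DMSO was -0.06 with 3B7N and 0.85 with 7NIT (adjusted p = 0.085). The laccase LAC2 rose by 1.59 with 3B7N (adjusted p = 0.00023), from levels of -7.73 to -7.34 with DMSO to -6.08 to -5.86. Its normexp difference was 0.01, a setting that adds an offset of 50. LAC2 signals were 10.0 to 10.9 with DMSO and 55.4 to 60.0 with 3B7N.

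**Figure D4:**
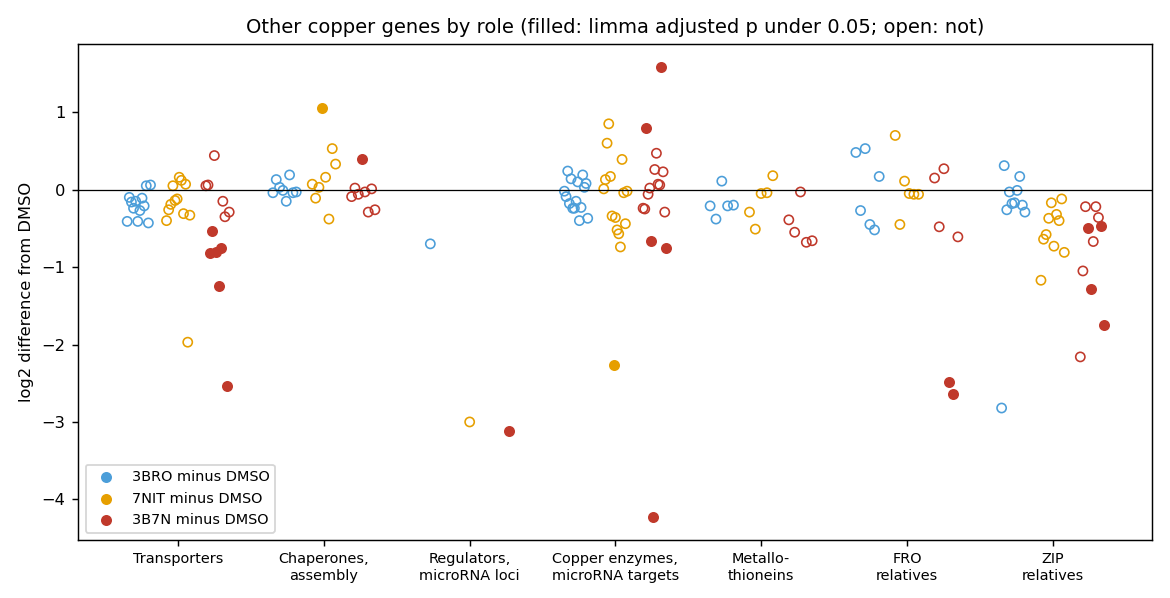
Log2 difference from DMSO of 57 other copper genes by role, for 3BRO, 7NIT and 3B7N (limma, 3 arrays per treatment); filled points have an adjusted p under 0.05. With 3B7N, 16 genes fell and 3 rose, FSD1 lowest at -4.23; with 7NIT, CCS and FSD1 are the filled points, and with 3BRO there are none.

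With 3BRO none of the 57 genes passed by limma, and 3 had an unadjusted 95% interval that left out 0, against 3.77% of all genes. With 7NIT 1 rose, CCS, where 0.0170% of all genes rose, and 1 fell, FSD1, where 0.00849% of all genes fell. In that comparison 15 had such an interval, against 7.89% of all genes. Without any 1 of the 7NIT arrays or without DMSO replicate 1, 0 of the 57 were called with 7NIT, and without 3B7N replicate 1, which shares in the estimate of spread, 4 were. In 3B7N minus 3BRO 9 fell and 2 rose, LAC2 and HMA5, where 4.79% of all genes fell and 2.72% rose. In 3B7N minus 7NIT 14 fell and the same 2 genes rose, LAC2 by 1.20, where 12.5% of all genes fell and 6.06% rose, and the count called was 10 without 7NIT replicate 3. The count in 3B7N minus 3BRO was 6 without 3BRO replicate 2. In 7NIT minus 3BRO CCS rose by 1.06 (adjusted p = 0.015) where 0.00849% of all genes rose, and FSD1 was the 1 gene that fell, where 0.0127% of all genes fell. Of the 10 genes with the largest differences among those that passed in 3B7N minus DMSO without overlap, FSD1, LAC2 and ZIP9 passed with slide as a block, and YSL2, FRO6, FRO7, AT1G71200, PAA1, COPT6 and ZIP11 came to adjusted p-values of 0.055 to 0.087. With scan day as a block FSD1 (adjusted p = 0.0023) and LAC2 (adjusted p = 0.019) passed, ZIP9 came to 0.069 and the other 7 to 0.06 to 0.2.

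In the authors' deposited table, which lists absolute folds without a direction, ZIP2 had a fold of 6.55 for 3B7N against DMSO and 6.02 for 7NIT. The authors' deposited table gave COPT2 a fold of 2.30 and CCH a fold of 2.39 for 3B7N, and the other listed loci have no row in it. FSD1 appears in the authors' deposited table on 2 probes, with folds of 18.8 and 12.1 for 3B7N and of 4.78 and 3.52 for 7NIT.

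Markers of tissues also differed between treatments. The summed signal of 6 of 8 root markers, those measured on every array, was 107 to 132 times the array's 75th percentile with DMSO, 99.1 to 115 with 3BRO, 87.4 to 97.5 with 7NIT and 74.9 to 86.3 with 3B7N. PYK10 alone made up 98.1% to 99.4% of that sum, so it says little of the other root markers. TIP2;3, PHT1;1 and NRT2:1 differed by 0.04, -0.18 and 0.72 in 3B7N minus DMSO, and none passed. The root markers SHV2, EXPA7, EXPA18 and PRP3 had DMSO levels of -0.77 to -0.37, -1.64 to -1.13, -2.29 to -2.03 and -2.46 to -2.07. With 3B7N these were lower on every array, at -2.01 to -1.69, -3.12 to -2.60, -4.09 to -3.44 and -4.48 to -3.46. With 3BRO and with 7NIT each of these root markers overlapped with DMSO, and 3BRO replicate 1 was the lowest 3BRO array at each. The sum of 5 of 6 green-tissue markers was 442 to 556, 369 to 411, 356 to 406 and 231 to 309 in the same order. All of these markers were well above background on every array. Division by the 75th percentile, which was higher with 3B7N than with DMSO, enters these sums. Before it, PYK10 signals were 214700 to 233800 with DMSO and 279800 to 317900 with 3B7N. PSBO1, the leading green-tissue marker, had 430100 to 457200 and 466000 to 529000, and GLDP1 had 33950 to 41590 and 17490 to 29010. The other summed green-tissue markers overlapped between DMSO and 3B7N before scaling. In 3B7N minus DMSO 4 of 8 root markers and 5 of 6 green-tissue markers fell, where 10.2% of all genes fell, and none of 4 late-seed markers passed. In whole seedlings fewer cells of a type and less RNA per cell cannot be told apart, and the part of tissue makeup in the copper results was not tested.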

How the data were processed

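Total RNA of whole seedlings was labelled with Cy3 and read on 12 one-colour Agilent arrays. The authors deposited scanner files with linear spot intensity values. The submitters' processing notes name Agilent Feature Extraction, version 10.7.3.1. Its processed signal is already corrected for background, per the file headers. The authors' deposited table adds absolute fold values (ratios without direction) and p-values named as corrected, by a method not given in the sources used here. That list begins at a fold of 2 and has 1779 rows for 3B7N and 14 for 7NIT.

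From the deposited intensity, log2 values minus each array's 75th percentile were computed, without control spots and spots flagged as non-uniform or outlying. Signals of 3BRO replicate 2 came rounded to 3 significant digits. Kept were the 35752 of 43603 probes that the scanner software marked well above background throughout at least 1 treatment (all 3 arrays). Each gene was read by its brightest kept probe over the 12 arrays, which gave 23550 genes. All arrays entered 1 limma fit (limma 3.58.1, R 4.3.3, data.table version 1.17.8) with 1 coefficient per treatment. P-values were adjusted by Benjamini-Hochberg over all genes separately in the 6 comparisons (threshold 0.05), and intervals are limma's 95% intervals. The fit was tested on simulated data with independent noise and no slide, scan day or replicate effect, so it does not cover those. In 3B7N minus DMSO it called 57% of 100 genes changed by a log2 difference of 1. It called 100% of 100 genes changed by 3, with 10 false calls among 23365 genes. The number of arrays limits the precision.

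The listed loci and the gene lists were chosen with earlier results of these data known. Of the list of other copper genes, the text names up to 10 that passed in 3B7N minus DMSO without overlap of the arrays, by size, and every measured chaperone, copper ATPase and COPT member. Symbols come from a RefSeq table of TAIR10.1, which held 23299 of the 23550 loci. The file headers name an older build, so no coordinates are given. Alternatives were normexp background correction, quantile and median scaling, other filters, the mean of a gene's probes, and blocks for replicate number, slide and scan day. The groups compared alone and leaving out each array were run too. Normexp used median signals, as mean signals were not among the columns, and an offset of 50. The labels do not say what a replicate number marks. Deviations of same-numbered arrays correlated at over 0.1 in all 3 pairs of DMSO with 3BRO (0.14 to 0.44) and of 3BRO with 7NIT (0.11 to 0.24), which counts as paired here, but not in every pair of the other 4 treatment pairs. Over all same-numbered pairs they ran from -0.16 to 0.44, over 0.1 in 11 of 18, and over different-numbered pairs from -0.38 to 0.33, over 0.1 in 6 of 36. Differences and intervals are from the fit without a block for replicate number, except where that block is named.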

Additional observations from a re-analysis of the deposited data

How the results depend on the processing

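The direction of the COPT2, CCH, ZIP2 and FRO4 differences in 3B7N minus DMSO held under every alternative run, with ranges of -1.37 to -1.02, -1.74 to -1.11, -4.30 to -2.24 and -7.38 to -2.26. After normexp correction FRO5 in 7NIT minus DMSO turned to 0.21 and MIR408 in 7NIT minus 3BRO to 0.23, at signals near background and below the added offset of 50. Of the listed loci 6 were called in 3B7N minus DMSO, and 3 after normexp or with probes required above background on all 12 arrays, a filter that drops FRO4, FRO5 and MIR408. That count was 5 with the slide block, 4 with the scan day block and 5 with the 2 groups alone. For 7NIT minus DMSO the 1 call became 0 with normexp, that filter or the slide block, 2 with quantile scaling and 4 with the replicate block. For 3B7N minus 3BRO the 6 calls became 3 with normexp or that filter and 1 with the 2 groups alone. For 3B7N minus 7NIT the 1 call became 0 with normexp, the probe mean, the slide block or the 2 groups alone, and 2 with the replicate block. For 7NIT minus 3BRO the 1 call became 0 with normexp, no filter, that filter, the slide block or the 2 groups alone, and 2 with the scan day block. Of the other copper genes, the 19 called in 3B7N minus DMSO became 12 with normexp, 5 with the slide block, 3 with the scan day block and 12 with the 2 groups alone. The 2 called in 7NIT minus DMSO became 0 with either block. The 11 in 3B7N minus 3BRO became 6 with normexp and 2 with the groups alone, the 16 in 3B7N minus 7NIT became 10 with normexp or the slide block, and the 2 in 7NIT minus 3BRO became 1 with normexp, 0 with the slide block and 1 with the groups alone. Over all genes, calls in 3B7N minus DMSO went from 1293 higher and 2404 lower to 146 and 624 with the slide block. With the scan day block they were 125 and 484, and with the 2 groups alone 603 and 1384. In 3B7N minus 3BRO the 2 groups alone moved them from 641 and 1129 to 113 and 133. In 7NIT minus DMSO they went from 4 and 2 to 3 and 31 with the slide block. Apart from the filter and fewer samples, the cause of the changed counts was not tested.

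Leaving out each array in turn gave 6 to 6 listed loci called in 3B7N minus DMSO, 0 to 0 in 3BRO minus DMSO, 0 to 2 in 7NIT minus DMSO, 5 to 6 in 3B7N minus 3BRO, 0 to 1 in 3B7N minus 7NIT and 0 to 2 in 7NIT minus 3BRO. In the same order the other copper genes called were 14 to 21, 0 to 0, 0 to 4, 6 to 12, 10 to 18 and 0 to 3. The call of COPT2 in 3B7N minus 7NIT was lost without 7NIT replicate 1 or 3. FRO5 in 7NIT minus DMSO was lost without DMSO replicate 1 or 3 or any 7NIT replicate, and 2 loci were called without 3BRO replicate 1 or 3. MIR408 in 7NIT minus 3BRO was lost without DMSO replicate 1, 3BRO replicate 2, 3B7N replicate 1 or 2, or any 7NIT replicate, and 2 loci were called without 3BRO replicate 1. The 11 other copper genes of 3B7N minus 3BRO became 6 without 3BRO replicate 2, and the 16 of 3B7N minus 7NIT became 10 without 7NIT replicate 3. The 2 of 7NIT minus 3BRO became 0 without 7NIT replicate 1 or 3, and 1 without DMSO replicate 1, 3BRO replicate 2 or 3, or 7NIT replicate 2. Leaving out an array ended none of the calls of the 10 largest other copper genes in 3B7N minus DMSO. With the replicate number as a block, the listed loci and other copper genes called were 0 and 0 in 3BRO minus DMSO and 1 and 2 in 7NIT minus 3BRO, as without it. They were 6 and 20 in 3B7N minus DMSO, 4 and 2 in 7NIT minus DMSO, 6 and 13 in 3B7N minus 3BRO and 2 and 17 in 3B7N minus 7NIT. FRO4 was lowest in replicate 1 of every treatment, and with this block its interval in 3B7N minus 7NIT was -2.16 to -0.54. Over the whole table normexp moved the genes called in 3B7N minus DMSO from 1293 higher and 2404 lower to 493 and 1233, and moved the median of all genes in 3B7N minus 7NIT to -0.24.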
